A study of Mus musculus with 6 samples.

Results

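The Notch pathway and the genes that set secretory fate were examined in the chromatin accessibility of mouse small intestinal crypts. The 10 members were the receptors *Notch1* and *Notch2*, the ligands *Dll1*, *Dll4* and *Jag1*, the DNA-binding factor *Rbpj*, the target genes *Hes1* and *Hes5*, and the secretory factors *Atoh1* and *Gfi1*. Their peaks were the rows of the deposited peak table whose gene name was exactly one of these symbols, which gave 22 of 123510 peaks. A total of 61914 peaks carried a gene name, which was given to genes within 5 kb. *Hes5* had no peak under its name, so the 22 peaks belonged to 9 genes.

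Notch receptors bind Delta and Jagged ligands on neighbouring cells. Ligand binding releases the intracellular part of the receptor by proteolysis, and this part joins RBPJ on DNA and switches on *Hes* genes. In crypts, HES1 represses *Atoh1*, so cells with active Notch take the absorptive fate. Cells that escape it express *Atoh1* and become goblet, Paneth or enteroendocrine cells.

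ATAC-seq, which reads open chromatin by transposase insertion, was carried out on nuclei of dissociated whole small intestinal crypts. There were 3 WT and 3 KO libraries from male mice on a C57BL/6 background, whose age is not given in the sources used here. These sources also do not say whether each library came from a mouse of its own, so p-values measure the spread between libraries, which may be technical. WT mice were wild type; whether they carried floxed alleles or Cre is not given. KO mice carried floxed *Smarcad1* alleles (fl/fl) from 1 targeted line and the Villin-Cre transgene, which is active in intestinal epithelium. Cre removed exons 12 to 14 of *Smarcad1*, which encodes a chromatin remodeller with a SNF2-type helicase domain. The comparison asked whether its loss alters accessibility. Whole crypts were not sorted, so the share of a cell type and the accessibility per cell cannot be told apart.

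Reads in peaks ranged from 4339306 (KO3) to 16301164 (WT3) per library. The numbers 2 and 3 set libraries apart: on the first principal component, which held 49.4% of the variance, WT2 and KO2 scored 116 and WT3 and KO3 scored −77.6 and −139. The share of reads in peaks that cover a coding start was lowest in KO2 (29.8%) and WT2 (30.7%) and highest in KO3 (35.6%), and its part in the results was not tested. None of the 4 peaks named *Smarcad1* lay over exons 12 to 14, so they do not check the deletion, and their KO minus WT values ranged from −0.14 to −0.01 on the log2 scale. Of 12 epithelial marker genes 8 had a named peak, and *Epcam*, *Vil1*, *Ascl2* and *Muc2* had none. All 6 endothelial, 5 of 6 stromal, 3 of 7 immune and 0 of 3 neural markers had a named peak. The summed log2 level of the epithelial list was 12.96 to 13.3 in WT and 12.78 to 13.51 in KO, the highest of the lists. It was 10.5 to 10.6 in WT and 10.4 to 10.7 in KO for the endothelial list. For the stromal list it was 9.38 to 9.65 and 9.43 to 9.70, and for the immune list 8.29 to 8.61 and 8.29 to 8.58. These sums also depend on the number of peaks, which was 21 for the epithelial, 20 for the endothelial, 9 for the stromal and 8 for the immune list. They do not measure the share of a cell type. The part of non-epithelial cells in the values of ligands that endothelium also uses, such as *Dll4* and *Jag1*, was not tested.

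By gene name, the receptors held 12 peaks, the ligands 5, *Rbpj* 1, the targets 1 and the secretory factors 3. These counts leave out 7 peaks that lie at members by annotation under another name or none, 4 of them at *Rbpj*. *Notch2* alone had 9 peaks, a number that 7.69% of the 18004 named genes reached or passed; *Notch1* had 3, *Dll1*, *Dll4* and *Atoh1* 2 each, and *Jag1*, *Rbpj*, *Hes1* and *Gfi1* 1 each. The median named gene had 2 peaks. Coding starts of 5 of the 10 members (*Notch2*, *Dll1*, *Rbpj*, *Atoh1* and *Gfi1*) lay inside a peak of the gene's own name. The start of *Dll4* lay inside a peak from 119324551 to 119326650 on chromosome 2 that was named *Gm14207*, which brings the count to 6 of 10. For comparison, 58.6% of 21864 coding genes had a coding start in a peak.

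The other starts lay outside the peaks. The *Notch1* peak nearest to a coding start was 7.67 kb into the gene, in an intron, and the single *Jag1* peak was 17.7 kb into that gene, also in an intron. The single *Hes1* peak lay beyond the 3′ end, 3.96 kb downstream of the start. For *Hes5* the nearest peak was 2.88 kb downstream of its start, beyond the gene, and was named *Pank4*. The *Gfi1* peak covered an alternative coding start and not the principal one. In all, 5 of the 22 peaks covered a coding start with coding exon and UTR, 11 were intronic, 2 covered other coding exons and 4 lay outside the gene.

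**Figure D1:**
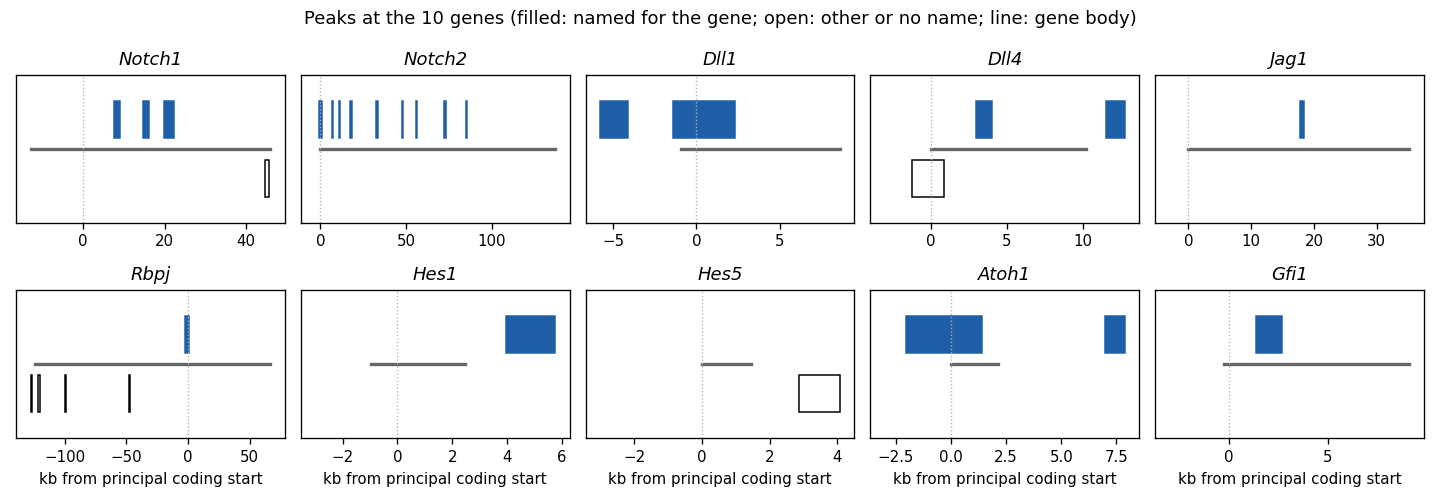
Peaks at each member gene by distance from the principal coding start (kb, negative is upstream). Filled boxes are the 22 peaks named for the gene, open boxes are the 7 nearby peaks with another name or none, and the grey line is the gene body. *Notch1*, *Jag1*, *Hes1* and *Hes5* have no box over a dotted start line, and the filled *Gfi1* box lies to the right of its line.

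Sequence immediately upstream of annotated exons is given for some starts inside and outside peaks, as a description. *Gfi1*, *Hes1* and *Hes5* are not among the lines. The lines below give, from the RefSeq promoter windows of GRCm38.p6, the bases before an annotated exon at a start, read 5′ to 3′ along the gene. For *Rbpj*, which has 6 coding starts, this start lies inside the longer gene annotated from 53466152. Capitals mark matches to the RBPJ core TGGGAA or the E-box CAGCTG on either strand. *Notch1* and *Jag1* come from outside the peaks, *Dll4* from inside the peak with another name, and the rest from inside peaks of their own name.
Notch1 (chr2:26503825-26504072, minus strand): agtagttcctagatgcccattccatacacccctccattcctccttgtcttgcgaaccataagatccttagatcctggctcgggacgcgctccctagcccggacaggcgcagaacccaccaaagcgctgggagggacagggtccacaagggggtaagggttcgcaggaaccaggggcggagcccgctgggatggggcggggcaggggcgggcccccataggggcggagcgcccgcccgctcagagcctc
Jag1 (chr2:137116645-137116770, minus strand): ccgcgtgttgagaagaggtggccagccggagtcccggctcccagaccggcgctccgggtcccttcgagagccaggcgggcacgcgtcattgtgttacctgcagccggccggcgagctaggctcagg
Notch2 (chr3:98013288-98013526, plus strand): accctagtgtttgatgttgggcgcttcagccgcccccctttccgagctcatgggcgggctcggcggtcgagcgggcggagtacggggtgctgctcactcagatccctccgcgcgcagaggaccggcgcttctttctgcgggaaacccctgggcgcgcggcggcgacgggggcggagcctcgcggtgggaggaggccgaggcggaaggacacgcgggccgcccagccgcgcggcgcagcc
Dll1 (chr17:15376933-15377182, minus strand): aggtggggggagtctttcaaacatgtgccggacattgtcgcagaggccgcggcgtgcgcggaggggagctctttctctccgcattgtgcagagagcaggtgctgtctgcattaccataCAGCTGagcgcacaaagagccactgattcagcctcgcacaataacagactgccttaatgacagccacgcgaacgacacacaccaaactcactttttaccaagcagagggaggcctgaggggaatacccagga
Dll4 (chr2:119325534-119325783, plus strand): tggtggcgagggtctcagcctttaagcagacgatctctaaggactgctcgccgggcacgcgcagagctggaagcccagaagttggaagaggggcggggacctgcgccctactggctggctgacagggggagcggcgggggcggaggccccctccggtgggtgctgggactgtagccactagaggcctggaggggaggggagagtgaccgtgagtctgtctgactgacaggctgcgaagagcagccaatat
Rbpj (chr5:53590096-53590213, plus strand): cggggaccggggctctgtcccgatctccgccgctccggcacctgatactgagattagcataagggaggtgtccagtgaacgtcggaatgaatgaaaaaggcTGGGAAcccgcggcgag
Atoh1 (chr6:64728875-64729124, plus strand): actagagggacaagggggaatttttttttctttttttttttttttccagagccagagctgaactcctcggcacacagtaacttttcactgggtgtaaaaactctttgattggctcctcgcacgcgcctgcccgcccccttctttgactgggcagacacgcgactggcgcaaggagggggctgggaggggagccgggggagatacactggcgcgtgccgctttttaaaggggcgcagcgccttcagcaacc

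Few of these letters match the motifs. A single RBPJ core stood upstream of this *Rbpj* start and a single E-box upstream of *Dll1*. Over the whole windows, which run from 250 bases before to 50 after a start, 9 members had an entry; *Hes1* had none. The longer RBPJ site GTGGGAA was found 2 times in the *Hes5* window, 1 on each strand, and in no other member window, against 6.39% of 32817 windows of all genes. The core, which the longer site contains, was in 25.6% of all windows and in those of *Hes5* and *Rbpj*. The E-box was in 16.3% of all windows and in those of *Jag1* and *Dll1*. The *Hes5* window, with both sites, was not covered by a peak.

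Peak strength is given as read count per peak scaled to the largest library, on the log2 scale, on which a step of 1 is a doubling. In WT the *Rbpj* peak (chromosome 5, 53588401 to 53591700), over the start of the factor on which all 4 mammalian receptors converge, was the strongest. It measured 10.30, 9.79 and 10.63 in WT1 to WT3, which put it in the top 0.183% of all peaks. Per kb of width, where peaks of different length can be compared, it was in the top 0.913%. The *Dll1* start peak (chromosome 17, 15373651 to 15377400), at a ligand of the secretory lineage, was at 8.98, 8.92 and 9.21, and the *Atoh1* start peak (chromosome 6, 64727101 to 64730550), at the master factor of secretory fate, at 9.13, 8.23 and 9.58. *Atoh1* varied more between WT libraries than *Dll1*, with an SD of 0.69 against 0.15 (n = 3).

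The strongest receptor peak was not at a start. It was a *Notch1* peak (chromosome 2, 26481451 to 26484000) over coding exons 19.8 kb into the gene, at 9.001, 8.53 and 9.30 in WT. The *Notch2* start peak (chromosome 3, 98012851 to 98014350) was at 8.01, 7.76 and 8.43. The 8 intronic *Notch2* peaks were weaker, with WT means from 5.05 to 7.22, so that every one lay below its start peak. The *Hes1* peak (chromosome 16, 30069301 to 30071100) was at 8.02, 7.58 and 8.15, and the *Gfi1* peak (chromosome 5, 107723101 to 107724450), at a zinc-finger repressor that acts after *Atoh1*, was at 7.26, 7.05 and 7.32. *Jag1* was the weakest of the ligands, with 5.93, 4.88 and 6.13 at its intronic peak (chromosome 2, 137098201 to 137098950). Of the 22 peaks, 17 were above the median WT level of all peaks, 5.79, and 19 above the median per kb, 6.43.

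By median, start peaks were wider and, over their whole width, stronger than the rest, but the classes overlapped. Start peaks ran from 1350 to 3750 bp and from 7.21 to 10.24 in WT mean. The other peaks ran from 450 to 2550 bp and from 5.05 to 8.94. The 5 start peaks had a median width of 3300 bp and a median WT level of 8.98, and the other 17 had 1050 bp and 6.98. Per kb the medians were 7.19 and 6.64. The middle 300 bases of the start peaks had a median GC content of 61.3%, the other 17 had 52.7%, and all peaks had 48.7%.

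The median ligand peak was stronger than the median receptor peak in every library when taken whole. This order did not hold peak by peak. Of the 12 receptor peaks 8 were intronic *Notch2* peaks, while the exonic *Notch1* peak had a WT mean of 8.94. Among the ligands the WT means ran from 5.65 at *Jag1* to 9.04 at the *Dll1* start. The median receptor peak lay below the median ligand peak by a difference of −0.77 ± 0.19 (SD, n = 3 WT libraries; no test was made), and per kb by −0.425 ± 0.13. Receptor medians were 6.89, 6.22 and 7.13 in WT1 to WT3, and ligand medians 7.57, 7.20 and 7.76. The single target peak, at *Hes1*, lay above the ligand median by 0.41 ± 0.03, but per kb the difference was 0.03 ± 0.06, within the spread between libraries. The secretory factor median was above the receptor median in 6 of 6 libraries and below the ligand median in 5 of 6.

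Summed over each gene's peaks and divided by their width, the WT levels in log2 scaled reads per kb were 8.52 ± 0.43 for *Rbpj*, 7.27 ± 0.37 for *Dll4*, 7.15 ± 0.65 for *Atoh1*, 7.13 ± 0.27 for *Notch1*, 7.07 ± 0.19 for *Dll1*, 7.07 ± 0.30 for *Hes1*, 6.81 ± 0.34 for *Notch2*, 6.78 ± 0.14 for *Gfi1* and 6.06 ± 0.67 for *Jag1* (SD, n = 3). *Rbpj* was first and *Jag1* last in all 6 libraries. The gap between *Rbpj* and *Dll4*, 1.25, and that between *Gfi1* and *Jag1*, 0.72, were larger than the SDs of both genes. Between them, from *Dll4* to *Gfi1*, no neighbour differed from the next by more than its SD. *Atoh1* was in place 2 or 3 in the 4 libraries numbered 1 and 3, but was in place 8 of 9 in WT2 and KO2.

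**Figure D2:**
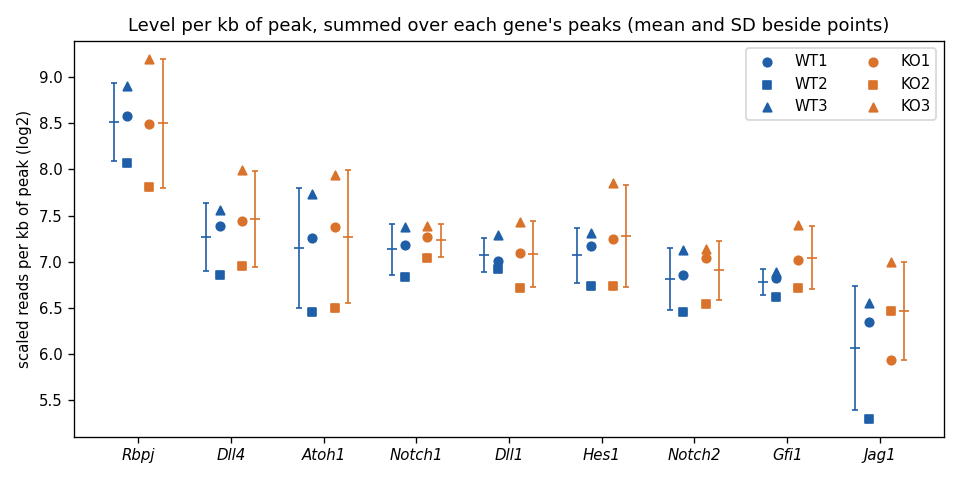
Scaled reads per kb of peak (log2), summed over the peaks of each gene, for the 9 genes with a peak in order of the WT mean. Points are libraries (circle 1, square 2, triangle 3), and the dash and bar beside them are the mean and SD of 3 libraries. *Rbpj* stands above every other gene in each library, and the square of number 2 is low at *Atoh1* in both groups.

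Loss of *Smarcad1* was not accompanied by a called change at any Notch pathway peak. By limma's test with Benjamini-Hochberg adjustment over 123510 peaks, 0 of the 22 had an adjusted p below 0.05, where 0% of all peaks did. That 0% belongs to the limma fit. The authors' edgeR test did report sites with a significant change in accessibility, most of them increases. At an unadjusted p below 0.05, 1 of the 22 was found, against 2.28% of all peaks. The voom fit on recovered reads also called 0 of the 22, with 1 at an unadjusted p below 0.05. KO minus WT was above 0 at 18 of the 22, where 46.9% of all peaks were, and the median over the 22 was 0.11, where all peaks had −0.02. These values moved with single libraries, as did those of all peaks. Without WT2, 8 of the 22 were above 0, with a median of −0.07 where all peaks had −0.14, and without KO3 it was 10, with −0.03 against −0.11. Without KO2, 21 were above 0, with a median of 0.31 against 0.08 for all peaks, and without WT3 it was 20, with 0.28 against 0.08. Without both number 2 libraries it was 18 of the 22, with a median of 0.13 against −0.03.

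Of the receptors, *Notch2* held the 1 peak with an unadjusted p below 0.05. This intronic peak (chromosome 3, 98061301 to 98061900) lies 47.8 kb into the gene. It measured 4.97, 5.05 and 5.64 in WT1 to WT3 and 5.98, 5.77 and 5.90 in KO1 to KO3, so every KO library was above every WT library. The counts behind it were small: 16, 18 and 50 reads in WT and 29, 38 and 15 in KO. KO minus WT was 0.66 (SE 0.27, 95% interval 0.09 to 1.23, limma p = 0.026, adjusted p = 1; exact permutation p = 0.1, the smallest that 3 against 3 libraries allow). It was one of the faintest peaks per kb, at 97.4% of the ranking from the strongest. The unadjusted p stayed below 0.05 in 10 of 13 alternatives, among them the one without both number 2 libraries (difference 0.63). It was above 0.05 without WT1, without WT2 or without KO1, reaching 0.099. The alternatives reuse the same libraries, and the minimum mean of 20 removed no peak and so repeats the main fit. They are therefore not independent support for this peak.

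The middle 300 bases of this *Notch2* peak are given because it was the peak with the smallest p; capitals mark the RBPJ core on either strand, which occurs 2 times within a few bases, in opposite directions.
Notch2 intron peak (chr3:98061451-98061750, plus strand): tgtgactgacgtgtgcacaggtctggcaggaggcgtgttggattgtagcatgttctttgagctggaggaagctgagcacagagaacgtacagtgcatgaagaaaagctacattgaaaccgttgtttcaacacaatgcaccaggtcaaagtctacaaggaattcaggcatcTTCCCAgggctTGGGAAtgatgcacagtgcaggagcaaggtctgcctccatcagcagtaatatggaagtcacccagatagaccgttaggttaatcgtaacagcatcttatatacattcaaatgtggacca

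The other *Notch2* peaks varied without a separation of the groups. The start peak was at 7.94, 7.45 and 8.37 in KO, a difference of −0.14 (95% interval −0.84 to 0.56). The other 7 intronic peaks differed by −0.03 to 0.26. At *Notch1* the intronic peak nearest to the start (chromosome 2, 26494651 to 26496150) was at 7.18, 7.01 and 7.14 in WT and at 7.39, 7.49 and 7.32 in KO. Here too every KO library was above every WT library, but the difference was small, 0.29 (SE 0.26, 95% interval −0.28 to 0.85, limma adjusted p = 1). These *Notch1* and *Notch2* peaks were the 2 of the 22 whose groups did not overlap with KO above WT, where 2.70% of all peaks did so. With KO below WT there were 0 of the 22, against 4.10% of all peaks. The other intronic *Notch1* peak (chromosome 2, 26487601 to 26489100) lies 14.7 kb into the gene. It was at 7.20, 7.09 and 7.25 in WT and at 7.05, 7.29 and 6.85 in KO, with overlapping groups. Its difference was −0.11 (95% interval −0.69 to 0.46), below 0 unlike those of the other *Notch1* peaks. The exonic *Notch1* peak, the strongest of the receptors, was at 9.12, 8.62 and 9.35 in KO and differed by 0.08 (95% interval −0.66 to 0.83).

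Neither *Jag1* nor *Dll4* separated the groups. The *Jag1* peak was at 5.52, 6.04 and 6.58 in KO, higher than WT by 0.40 (95% interval −0.35 to 1.15), and the groups overlapped. Its difference was 0.019 without WT2, 0.021 without both number 2 libraries, 0.13 without KO3 and 0.67 without KO1. The *Dll4* peak over coding exons (chromosome 2, 119328751 to 119329800) was at 7.46, 6.81 and 7.70 in WT and 7.71, 7.09 and 8.30 in KO. Its difference was 0.37 (95% interval −0.38 to 1.13), again with overlapping groups, and ranged from 0.074 without KO3 to 0.68 without KO2. The second *Dll4* peak, downstream of the gene, differed by 0.02, and the peak over the *Dll4* start that carries the name *Gm14207* by 0.15 (95% interval −0.51 to 0.81). *Dll1* showed the smallest differences of the ligands: its start peak was at 9.04, 8.67 and 9.41 in KO, a difference of 0.00 (95% interval −0.71 to 0.71). The peak upstream of *Dll1* (chromosome 17, 15380101 to 15381750) was at 7.57, 7.40 and 7.95 in WT and 7.71, 7.31 and 7.95 in KO, a difference of 0.02.

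At *Rbpj* the groups covered the same range. KO libraries were at 10.21, 9.53 and 10.93, with a mean of 10.22 against 10.24 in WT, and the difference was −0.02 (SE 0.43, 95% interval −0.93 to 0.89). Number 2 was the lowest and number 3 the highest library in both groups, and the SD within groups (0.43 in WT, 0.70 in KO) exceeded the difference between them. The same order held at *Hes1*, whose peak was at 8.09, 7.59 and 8.70 in KO and differed by 0.21 (95% interval −0.52 to 0.93).

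The secretory factors differed little between the groups. The *Atoh1* start peak was at 9.23, 8.22 and 9.73 in KO, a difference of 0.08 (SE 0.44, 95% interval −0.86 to 1.02), the widest interval of the 22. The downstream *Atoh1* peak (chromosome 6, 64736101 to 64737000), 6.98 kb from the start, was at 6.73, 6.34 and 7.36 in WT and 6.93, 6.56 and 7.75 in KO, a difference of 0.27 (95% interval −0.47 to 1.02). *Gfi1* was at 7.45, 7.15 and 7.83 in KO, a difference of 0.27 (95% interval −0.35 to 0.88). At both genes WT2 and KO2 were the lowest of their group at every peak. Over all 22 peaks WT2 was the lowest WT library at 19 and KO2 the lowest KO library at 18, while over all peaks these shares were 63.4% and 52.6%.

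**Figure D3:**
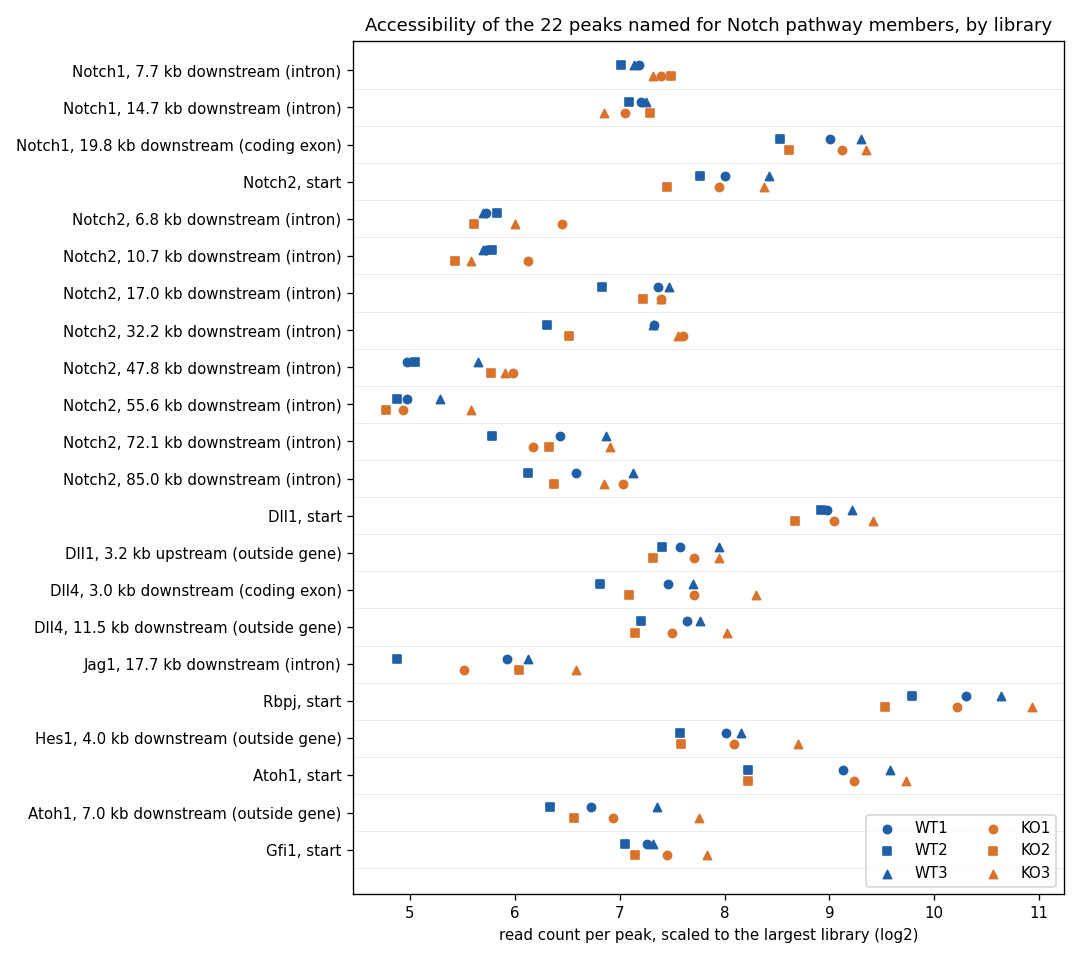
Scaled read count (log2) of each of the 22 peaks in 6 libraries, with WT in blue and KO in orange and the symbol giving the library number. Distances are from the nearest coding start. Blue and orange points overlap at every peak except the *Notch1* peak at 7.7 kb and the *Notch2* peak at 47.8 kb.

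**Figure D4:**
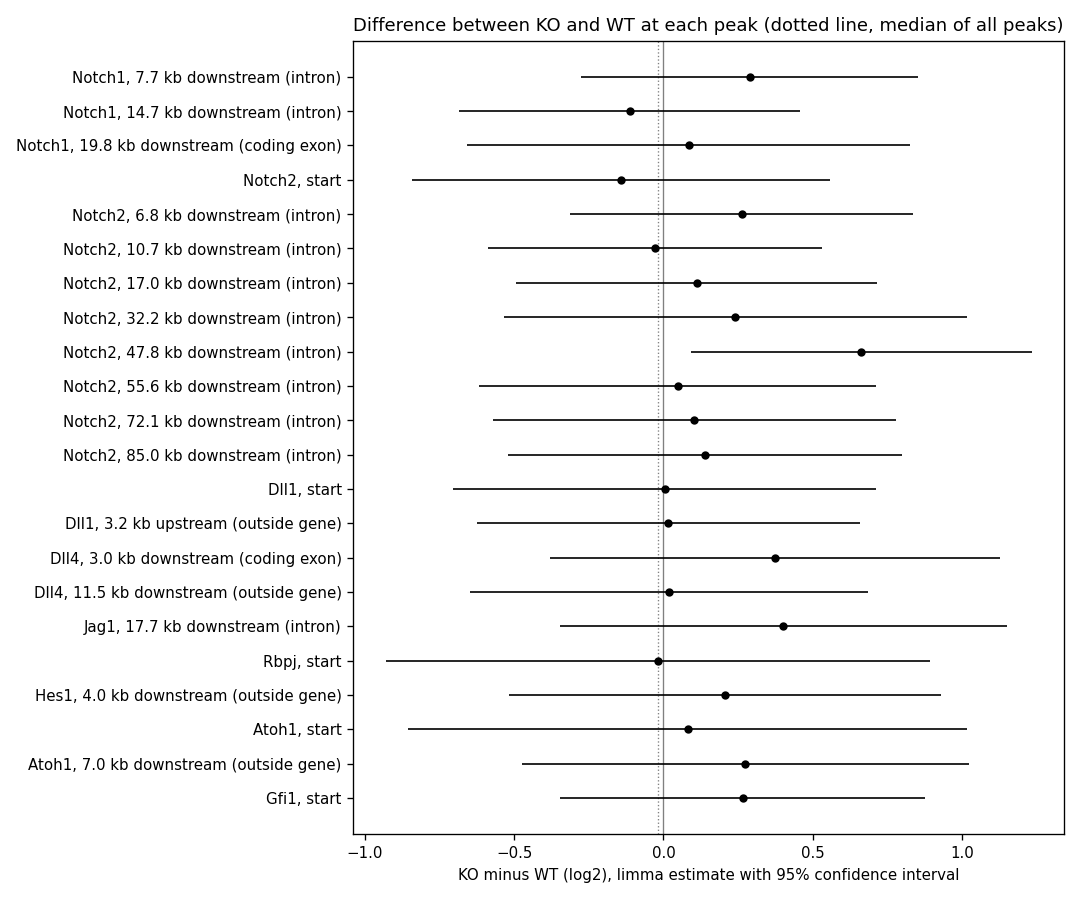
KO minus WT (log2) at each of the 22 peaks, as the limma estimate (point) with its 95% confidence interval (bar); the dotted line is the median of all peaks. The interval includes 0 at 21 of the 22 peaks, the exception being the *Notch2* peak at 47.8 kb.

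Summing the peaks of a gene gave the same picture. Of the 9 member genes with a peak, 0 were called (0% of 18004 named genes) and 0 had an unadjusted limma p below 0.05 (0.761% of named genes). The gene-level differences were 0.10 for *Notch1*, 0.09 for *Notch2*, 0.01 for *Dll1*, 0.20 for *Dll4*, 0.40 for *Jag1*, −0.02 for *Rbpj*, 0.21 for *Hes1*, 0.12 for *Atoh1* and 0.27 for *Gfi1*. They were above 0 for 8 of the 9, where 55.3% of named genes were, for 3 of the 9 without WT2 or without KO3, and for all 9 without KO2 or without WT3. The median over all named genes, 0.02, was −0.11 without WT2, −0.14 without KO3, 0.18 without KO2 and 0.14 without WT3. The narrowest interval was that of *Gfi1*, −0.24 to 0.78, and the widest that of *Atoh1*, −0.79 to 1.03.

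The rest of the pathway was read through a list of 47 genes, of which 41 had a named peak and together held 142 peaks. None of the 41 was called, and 1 had an unadjusted limma p below 0.05; 25 were higher and 16 lower in KO, with a median of 0.04. The number higher was 12 without KO3 and 15 without WT2, but 36 without KO2 or without WT3, along with the shifts of all named genes given above. The gene with an unadjusted p below 0.05 was *Dll3*, a ligand that acts inside the cell, with 1 peak, a WT level of 5.99 ± 0.10 and a KO level of 6.58 ± 0.41 (SD, n = 3). Its difference of 0.58 (95% interval 0.02 to 1.14, limma p = 0.043, adjusted p = 1.00; exact permutation p = 0.1) was the highest on the list. Every KO library was above every WT library at 3 of the 41 genes, *Dll3*, *Numbl* (0.41) and *Hes7* (0.22), where 2.07% of named genes showed this. The count of 1 with an unadjusted p below 0.05 fell to 0 when any single library other than KO2 was left out. It was 3 with the replicate number as a block, where 1031 of 18004 named genes had such a p, against 137 with no block. *Jag2*, the remaining ligand, had the lowest, −0.21 (95% interval −0.68 to 0.26). The receptors *Notch3* and *Notch4* differed by 0.04 and −0.03.

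By role, with all 6 libraries, 5 of 7 genes of ligand and receptor trafficking were above 0, a group that includes *Mib1*, the ligase that activates ligands, at 0.00. Of the 7 proteases that cut Notch, 3 were above 0, with *Adam10* at 0.01. The 5 enzymes that add sugars to the receptors had 2 above 0, with *Lfng* at −0.07. Among 6 nuclear cofactors with a peak, which include the co-activators *Maml1* to *Maml3*, 5 were above 0 with a highest value of 0.13. Other targets split evenly, 3 above and 3 below 0, with *Hey1* at −0.03 and *Nrarp* at 0.09. Of the 6 secretory fate factors with a peak, 5 were above 0, including *Spdef*, which drives goblet and Paneth maturation, at 0.26, and *Sox9* at 0.13. None of the values in this paragraph had an unadjusted p below 0.05.

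**Figure D5:**
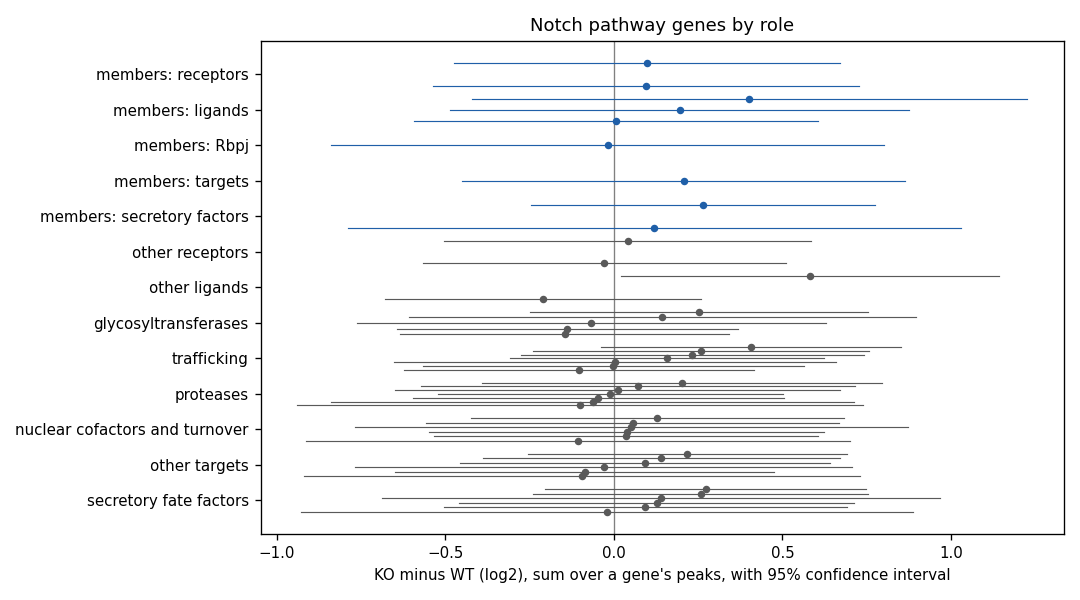
KO minus WT (log2) of the sum over each gene's peaks, with 95% confidence intervals, for the 9 members with a peak (blue) and 41 other pathway genes (grey), arranged by role. The bar of *Dll3*, the upper point of the other ligands, is the one bar that does not reach 0.

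The middle 300 bases of the 22 peaks were also searched for the motifs. The RBPJ core was in 12 of the 22, against 24.3% of all peak middles, and the longer RBPJ site in 3 of the 22, against 6.17%. Those 3 were the *Dll1* peak upstream of the gene and the *Notch2* intronic peaks 32.2 and 85.0 kb into the gene. All 3 *Notch1* peaks and 6 of the 9 *Notch2* peaks held the core. The E-box was in 5 of the 22, against 18.0% of all peak middles: 1 peak each at *Notch1*, *Dll4*, *Jag1*, *Gfi1* and *Dll1*. These matches describe letters in a window and not binding.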

How the data were processed

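ATAC-seq libraries, 3 WT and 3 KO, were analysed from the deposited peak table. Per the submitters' processing notes, reads were trimmed with Trim Galore 0.4.1 and mapped to GRCm38 with Bowtie2 2.2.5. The authors removed duplicates, called peaks with MACS in SeqMonk on default settings and tested counts with edgeR. The deposited values are log2 read counts that the authors scaled to the largest library; peak names are genes within 5 kb. Whether peaks were called on pooled libraries is not given in the sources used here. A second deposited table of selected peaks with the authors' adjusted p-values was not used.

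All values were whole multiples of a constant per library (100% within 0.1 read), so reads were recovered. KO and WT were compared with limma 3.58.1 (R 4.3.3), with a mean-variance trend, on the log2 values of all peaks and of linear sums per named gene, with two-sided tests and Benjamini-Hochberg adjustment over all features (threshold 0.05). The 3 libraries per group and 4339306 to 16301164 reads set the precision. Exact permutation of 3 against 3 libraries cannot go below p = 0.1. Positions were annotated with the GENCODE annotation of GRCm38. The fits were also run on simulated data with noise drawn independently for each peak and library. The simulation held no differences shared by libraries of the same number, so it cannot show how the fits behave under them. All 10 members are described, with every peak of theirs; of other pathway genes, those with an unadjusted p below 0.05 and the highest and lowest difference are named, and any others named were chosen after their values were seen. Members and gene lists were chosen with earlier results of these data known. Alternatives were median centring, quantile normalization, voom with TMM scaling, a pseudocount of 5, a minimum mean of 20, a replicate block, membership by annotation and leaving out libraries.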

Additional observations from a re-analysis of the deposited data

How the results depend on the processing

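No member peak or gene and none of the 41 other pathway genes was called under any alternative run for it; the lowest adjusted p of a member peak was 0.531. The fit without both number 2 libraries was chosen after seeing the data. It called 143 of all peaks, and the fit without KO2 called 30, against 0 with all 6 libraries. Samples of the same number were not treated as pairs: their deviations from the group means correlated at 0.42 and 0.41 for the numbers 2 and 3, but at 0.04 for the number 1. With the number as a block, 272 of 123510 peaks but 0 members were called. In that fit 2 members had an unadjusted p below 0.05, where 8491 of the 123510 peaks did. With no block it was 1 member, where 2821 of all peaks did. Without single libraries the member count ranged from 0 to 1. Receptor minus ligand moved from −0.77 to −0.425 per kb. Target minus ligand moved from 0.41 to 0.030 per kb, 0.48 with means over peaks, 0.49 with peaks assigned by annotation and 0.50 in KO. The minimum mean of 20 removed no peak.

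KO minus WT changed sign in 37 of 286 combinations of peak and alternative, all at peaks whose interval includes 0; the cause was not tested. Voom turned the *Notch2* peak at 10.7 kb to 0.052. Quantile normalization turned the *Dll1* start peak to −0.0086 and the downstream *Dll4* peak to −0.0064. Without both number 2 libraries the *Notch2* peaks at 10.7, 17.0 and 72.1 kb were at 0.14, −0.027 and −0.12, and *Rbpj* at 0.10. When single libraries were left out, differences ranged from −0.12 to 0.29 at the *Notch1* exonic peak, −0.37 to 0.093 at the *Notch2* start, and, at the *Notch2* peaks 10.7, 17.0, 32.2, 55.6, 72.1 and 85.0 kb into the gene, from −0.23 to 0.11, −0.083 to 0.23, −0.10 to 0.59, −0.20 to 0.21, −0.19 to 0.36 and −0.10 to 0.40. They ranged from −0.18 to 0.19 at the *Dll1* start, −0.13 to 0.19 upstream of *Dll1*, −0.21 to 0.22 downstream of *Dll4*, −0.37 to 0.33 at *Rbpj*, −0.079 to 0.48 at *Hes1*, −0.29 to 0.50 at the *Atoh1* start and −0.060 to 0.55 downstream of *Atoh1*.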

Other observations

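Peaks that lie at the members but carry another name or none entered the comparisons only in the alternative with membership by annotation. That alternative held 29 peaks, of which 0 were called. A peak in the *Notch1* 3′ UTR (chromosome 2, 26458201 to 26459250), named *0610009E02Rik*, was at 7.26 ± 0.32 in WT and 6.89 ± 0.33 in KO (log2 scaled reads; SD, n = 3), a difference of −0.37 (95% interval −0.996 to 0.26). The peak downstream of *Hes5* that is named *Pank4* was at 8.24 ± 0.33 in WT and 8.04 ± 0.50 in KO, a difference of −0.20 (95% interval −0.92 to 0.52). Upstream of the *Rbpj* start peak, 4 peaks without a gene name lay within or just before the longer *Rbpj* gene of the annotation, with WT means from 5.44 to 7.98 and differences from −0.20 to 0.23. None of them had an unadjusted limma p below 0.05.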
